A study of Caenorhabditis elegans with 12 samples.

Results

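Animals of the C. elegans strain VT3797, which carries a U-to-A substitution at nucleotide 18 of the let-7 microRNA, were compared with animals of strain VT1367 over all genes. The mutant genotype was maIs105 with let-7(ma435), and the control genotype was maIs105 alone, so both groups carried the same transgene and differed, per the labels, in the let-7 allele. Both had 3 libraries, called A, B and C, which made 6 of the 12 libraries of the series. Nothing in the labels says whether the libraries of a group came from separate cultures, so p-values measure the spread between these libraries only. All animals were larvae at the middle of the fourth larval stage (L4), grown at 20 °C and harvested 45 h after feeding, and RNA was taken from whole animals. The table held 46722 entries, and 12689 of them had enough counts to be tested.

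The microRNA let-7 acts among the heterochronic genes, which time the switch of epidermal cells from larval to adult fates, and nucleotide 18 lies in its 3′ part, outside the seed. At the end of each larval stage the epidermis lays down a new cuticle, made largely of collagens, beneath a transient precuticle matrix, and the old cuticle is shed in a moult. Many genes for these steps are expressed in a wave once per larval stage. The intestine makes yolk proteins for oocytes from the end of larval life on, while the L4 germline turns from sperm to oocytes. The harvest covered a single time, so a level that differs between strains cannot be told apart from a wave that is shifted in time. In RNA from whole animals, fewer cells of a type and less RNA per cell cannot be told apart either.

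Total counts ran between 6107652 and 9607239 per library, and between 61.5% and 67.2% of them lay in protein-coding genes. Mutant C stood apart: the chi-square per degree of freedom was 23.8 between it and mutant A, and 17.4 between it and mutant B. The same measure was 6.77 between mutants A and B and at most 5.04 between controls. The 3 most abundant entries, rpr-1, mrpr-1 and ZK643.9, all non-coding RNAs, took 13.8% of its counts and between 18.3% and 20.4% of those of the other libraries. Control A lay farthest from the mutants on the first principal component, at -31.7, against -19.9 and -10.3 for controls B and C and between 17.1 and 26.3 for the mutants. Many results that turn on either library are given with and without it, but not every such call is marked.

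The edited gene came first. let-7 had 44, 19 and 73 counts in mutants A to C, against 70, 2494 and 48 counts in controls A to C. The 2494 counts of control B stood apart from every other library, and the remaining values of the groups overlapped. The log2 fold change, mutant over control, was -4.46 (SE 2.24, edgeR quasi-likelihood test with Benjamini-Hochberg adjustment, adjusted p = 0.363). The annotated let-7 entry spans 14743590 to 14745321 on chromosome X, so its counts are not read as a level of the mature microRNA. Gene counts do not show which allele was present, so the substitution itself went unchecked.

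A gene is called here when its adjusted p from the edgeR quasi-likelihood test, adjusted by Benjamini-Hochberg over all 12689 genes, was under 0.05. Of the tested genes 1036 were called (8.16%), 746 lower in the mutant (5.88%) and 290 higher (2.29%). The lower genes changed more: their median log2 fold change was -0.94, against 0.48 for the higher genes. A change of at least 1 on the log2 scale was reached by 366 called genes (2.88%), 347 of them lower and 19 higher. Together the lower genes made up 3.41%, 3.39% and 2.64% of the scaled library size in mutants A to C, against 6.37%, 5.80% and 5.33% in controls A to C. The higher genes made up 3.93%, 3.87% and 4.00% in mutants A to C, against 2.68%, 2.81% and 3.15% in controls A to C. These sums were made from the genes that the test chose and describe their weight in the RNA.

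Libraries within a group were also unequal for these genes. Control A was the highest control for 77.2% of the 746 lower genes, against 37% of all tested genes, and control C was the lowest control for 70.4% of them, against 32.5%. Mutant C was the lowest mutant for 54.8% of the lower genes, against 34.8% of all genes. Of the 290 higher genes, control A was the lowest control for 61.7%, against 36% of all genes. Without control A 548 genes were called, 86 higher and 462 lower, and without mutant C 741 were called, 185 higher and 556 lower. What set these libraries apart, and its part in the calls, was not tested.

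**Figure D1:**
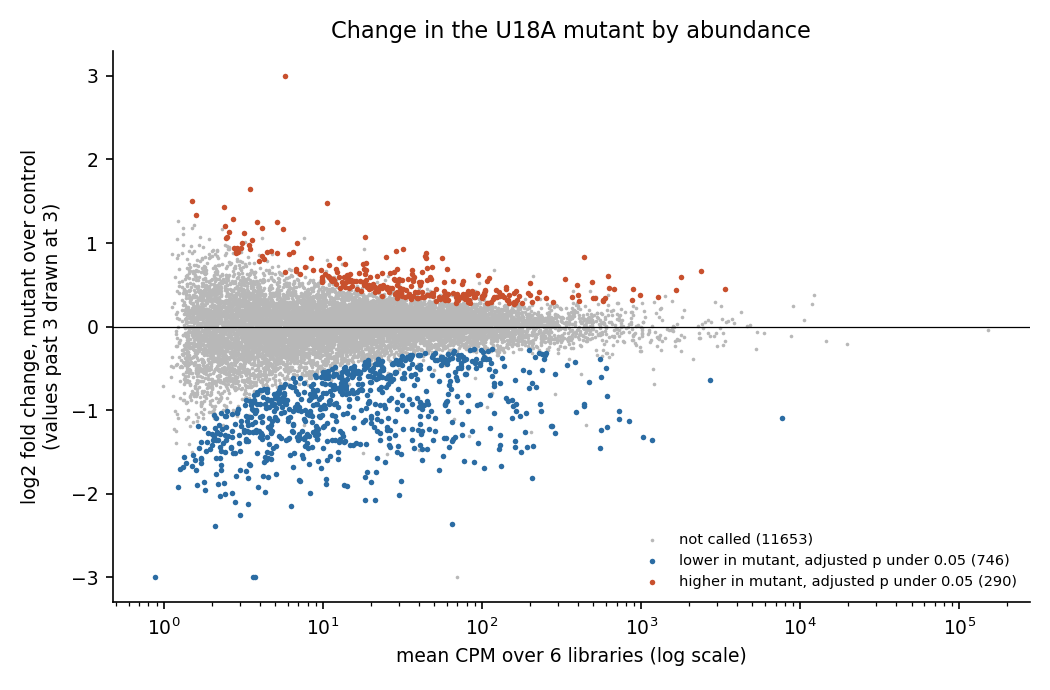
Each point is 1 of the 12689 tested genes, with its mean level over 6 libraries in CPM, counts scaled by library size (log axis) and its log2 fold change, mutant over control; blue points are the 746 lower genes and red points the 290 higher genes, with values past 3 drawn at 3. Blue points spread from low to high levels and reach past -1 at most levels, while most red points stay below 1.

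By abundance the directions differed. Levels are given in CPM, the count per TMM-scaled library size. Among the 5478 genes with a mean of 1 to 10 CPM, 5.57% were called lower and 0.821% higher. The shares were 6.26% and 3.09% among 5754 genes at 10 to 100 CPM, and 5.63% and 4.59% among 1350 genes at 100 to 1000 CPM. Among the 105 genes above 1000 CPM, 4 were lower and 5 were higher. The share of lower genes thus stayed between 3.81% and 6.26% over these classes, while that of higher genes lay between 0.821% and 4.76% and was least in the rarest class. Precision differed too: the median SE of the log2 fold change was 0.249 at 1 to 10 CPM and 0.0849 at 100 to 1000 CPM. The median log2 fold change of the higher genes was 0.92 in the rarest of these classes and 0.36 at 100 to 1000 CPM.

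**Figure D2:**
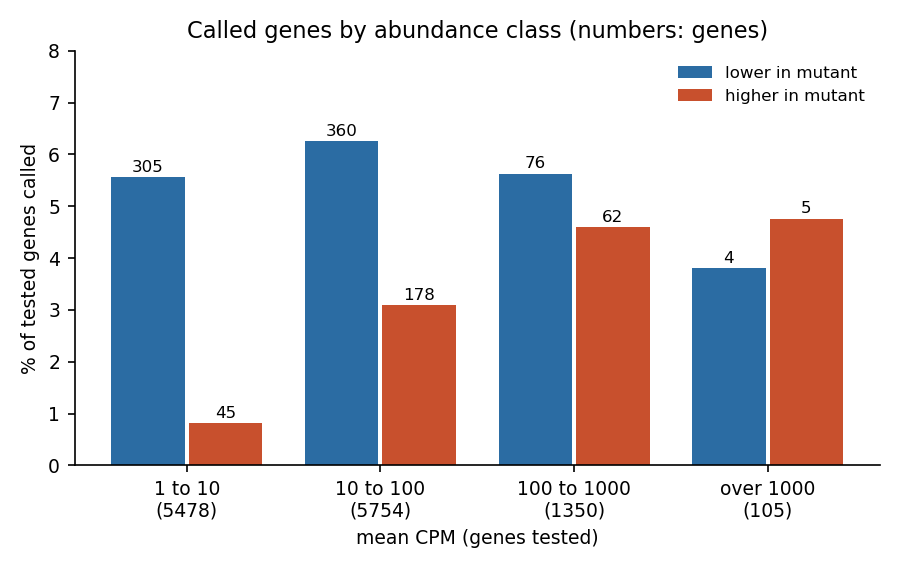
Bars give the percentage of tested genes in each class of mean CPM that was called lower (blue) or higher (red) in the mutant, with the number of called genes above each bar and the number tested in parentheses. The blue bars stand between 3.81% and 6.26%, and the red bars between 0.821% and 4.76%.

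Per kilobase of exon, the called lower genes had a median level of 8.88 CPM per kb, the called higher genes 28.3 CPM per kb and all tested genes 10.3 CPM per kb. Lengths were known for 667 of the lower genes, 264 of the higher genes and 10995 genes in all. By class of CPM per kb, 6.59% of genes at 1 to 10 were lower and 0.998% higher, 5.35% and 3.26% at 10 to 100, 7.57% and 6.89% at 100 to 1000, and 3.76% and 6.02% over 1000. Chromosome X held 146 lower genes, 9.09% of its 1607 tested genes, and the autosomes between 4.72% and 6.13%. Higher genes ran between 1.5% of the tested genes on chromosome I and 3.19% on chromosome V.

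The most abundant called genes were few in kind. F41F3.3 (WBGene00018297) had 5944, 5378 and 3278 CPM in mutants A to C, against 10001, 10870 and 10365 CPM in controls A to C. Its groups did not overlap, and it fell by 1.1 on the log2 scale (SE 0.18, edgeR adjusted p = 0.00115). The next were C02E7.7 (-0.64), rol-1 (-1.35), a gene known for the body shape of its mutants, K02E11.10 (-1.32) and grl-16 (-1.13), a hedgehog-related gene. For K02E11.10 the call was lost without control A (adjusted p = 0.108) and without control B (adjusted p = 0.094). On the higher side the most abundant were the yolk protein genes vit-6 and vit-2, the small nucleolar RNA C06A1.8 and the non-coding RNAs C38C6.8 and F52D4.1. The call of C38C6.8 was lost in 5 of the 6 leave-one-out fits, each made without 1 library, with an adjusted p of up to 0.311 without control A, and that of C06A1.8 in 3, with up to 0.228 without control A. The call of F52D4.1 was lost without control A (adjusted p = 0.158) and without control B (adjusted p = 0.0895). Among all 142 small nucleolar RNAs tested, 12 were higher and 0 lower, and their median log2 fold change was 0.14.

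The function lists below hold 1302 of the tested genes, 196 of the lower genes and 51 of the higher ones. By group, 95 of 187 cuticle genes were lower and 12 higher. Of 64 moult genes 33 were lower and 1 was higher, and of 359 signalling genes 45 were lower and 5 higher. The intestine group had 16 lower and 18 higher of 249, and the germline group 3 lower and 7 higher of 171. Among 11387 tested genes in no list, 550 were lower and 239 higher. The shares over all tested genes, 5.88% lower and 2.29% higher, are the background for every count.

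**Figure D3:**
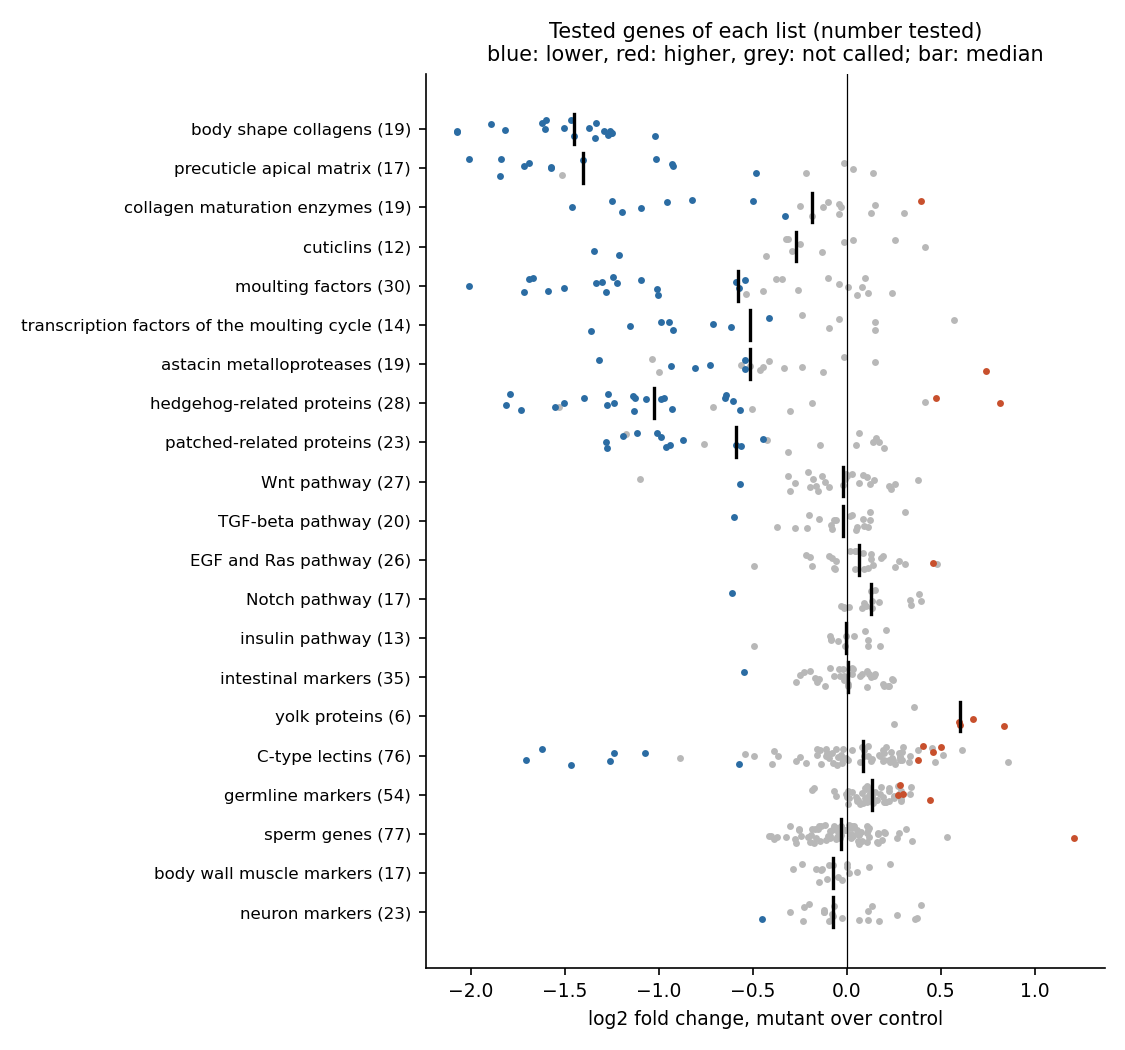
Each point is a tested gene of the list named at the left, at its log2 fold change, mutant over control; blue is called lower, red called higher, grey not called, and the black bar is the list's median over tested genes. The medians of the 9 lists at the top, from body shape collagens to patched-related proteins, lie between -1.45 and -0.18, while those of the pathway, intestinal, muscle and neuron lists lie near 0 and that of the yolk proteins lies at 0.60.

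Beyond the collagens, the called cuticle genes came mainly from the precuticle and from collagen processing. The collagens give the scale: 54 of 120 tested col genes were lower and 11 higher, and all 19 tested collagen genes named for body shape (dpy, rol, sqt, bli and lon-3) were lower, with a median of -1.45. The 11 higher col genes became 5 without control A, 4 without control B, 19 without mutant C and 1 with 12 libraries in 1 fit. Without mutant C 7 of the 19 body shape genes were called. Outside the collagens 22 of 48 tested cuticle genes were lower and 1 was higher.

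The precuticle matrix is the transient apical layer of lipocalins, zona pellucida domain proteins and leucine-rich repeat proteins that shapes the epidermis before the cuticle is made. Of its 17 tested genes 12 were lower and 0 higher, with a median log2 fold change of -1.40. The list summed to 404, 378 and 368 CPM in mutants A to C, against 801, 610 and 560 CPM in controls A to C. Without mutant C 7 of the 17 were called.

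fbn-1 (WBGene00022816, chromosome III, 7625386 to 7641078 in WBcel235) encodes a fibrillin-like matrix protein. It had 10.8, 13.3 and 11.9 CPM in mutants A to C, against 66.7, 41.7 and 37 CPM in controls A to C. The mutants sat close together, while control A stood above the other controls. Its mean was 12 ± 1.23 CPM in mutants and 48.5 ± 16.0 CPM in controls (SD, n = 3 each), 4.03-fold lower in the mutant (log2 fold change -2.01, SE 0.24, edgeR adjusted p = 0.00181). Without mutant C its adjusted p was 0.0805, at a log2 fold change of -2.01.

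noah-2 (WBGene00009926, chromosome IV, 14091254 to 14096626), a zona pellucida domain protein needed at the moult, had 25.7, 25.5 and 23.3 CPM in mutants A to C, against 109, 73.4 and 63.3 CPM in controls A to C. It fell by 1.72 on the log2 scale (SE 0.20, edgeR adjusted p = 0.00109), and without mutant C its adjusted p was 0.0722 at a log2 fold change of -1.67. Its relative noah-1 fell by 1.69 (adjusted p = 0.0232), a call lost without mutant C (0.184) and without control B (0.0562). The lipocalin-related genes lpr-6 (-1.84), lpr-4 (-1.84), lpr-5 (-1.57), lpr-1 (-1.58) and lpr-7 (-0.92) were lower. The lpr-3 change of -1.51 did not pass (adjusted p = 0.0866), nor did that of lpr-2 (-0.22). Of the leucine-rich repeat genes, sym-1 fell by 1.40 and let-4 by 1.01, while egg-6 stood at 0.14. let-653, a zona pellucida protein that holds narrow tubes open, fell by 0.93, but its call was lost without control A (adjusted p = 0.128), control B (0.0509) or mutant C (0.133). The lpr-1 call was lost without control A (adjusted p = 0.0767).

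Enzymes that mature collagen chains in the endoplasmic reticulum were 8 lower and 1 higher of 19 tested. The peptidyl prolyl isomerases fkb-5 (-1.46), fkb-4 (-1.25) and fkb-3 (-1.19) fell most. fkb-5 had 23, 29.9 and 19.6 CPM in mutants A to C, against 84.8, 61.0 and 51.9 CPM in controls A to C, and its call was lost without mutant C (adjusted p = 0.0952) and without mutant A (0.0501). The prolyl 4-hydroxylase subunits fell together: dpy-18 by 0.83, phy-2 by 0.96 and pdi-2, the shared beta subunit, by 0.50. dpy-18 kept its call in every fit that left out 1 library, whereas phy-2 lost it without mutant C (adjusted p = 0.185) and without mutant A (0.0631). pdi-2 had 511, 510 and 471 CPM in mutants A to C, against 770, 680 and 657 CPM in controls A to C. The oxidase and protease genes of cuticle cross-linking and collagen cleavage did not pass: bli-3 stood at -0.18, bli-4 at -0.13, mlt-7 at -0.10 and dpy-31 at -0.25. skpo-1, a haem peroxidase, was the higher gene (0.40), a call lost in 4 of the 6 leave-one-out fits, with an adjusted p of up to 0.139 without control A.

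Cuticlins are insoluble proteins of the cuticle. cut-2 had 77.7, 68.6 and 57.1 CPM in mutants A to C, against 183, 153 and 135 CPM in controls A to C, and fell by 1.21 (SE 0.13, edgeR adjusted p = 8.09e-05). cutl-28 (-1.35) was the other lower gene of 12 tested, a call lost without control A (adjusted p = 0.0751) and without mutant C (0.0505). The remaining 10 ranged between -0.43 and 0.41 and none was called.

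Many moult genes were lower in the mutant, among them 8 of 14 tested transcription factors and clock genes of the moulting cycle. The regulators nhr-23, nhr-25 and elt-3 were not called. Of 30 moulting factors 17 were lower and 0 higher (median -0.58), and of 9 tested mlt and mltn genes 7 were lower (median -1.33). Without mutant C the counts were 9 and 3. The mlt and mltn genes summed to 232, 223 and 209 CPM in mutants A to C, against 711, 483 and 429 CPM in controls A to C.

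mlt-11 (WBGene00012186, chromosome V, 20667205 to 20678537), a protease inhibitor of the moult, had 74, 63.5 and 52.7 CPM in mutants A to C, against 281, 170 and 154 CPM in controls A to C. The groups stood well apart, with control A highest. It fell by 1.67 (SE 0.29, edgeR adjusted p = 0.0283), a call lost without mutant C (0.194) and without control B (0.0593). mlt-9 (-1.59), mlt-8 (-1.33) and mlt-10 (-1.30), named for their moulting-defective mutants, fell with it, and each of these calls was lost without mutant C (adjusted p = 0.133, 0.0744 and 0.145), at log2 fold changes of -1.53, -1.30 and -1.24. acn-1, an angiotensin-converting enzyme-like protein without its active site, fell by 1.23, and lrp-1, a megalin-like receptor through which epidermal cells take up sterols, fell by 1.01. These calls too were lost without mutant C (0.0955 for acn-1 and 0.115 for lrp-1), at log2 fold changes of -1.16 and -1.01. Kinases and trafficking genes of moulting were not called: nekl-3 stood at -0.54, nekl-2 at -0.38, sec-23 at -0.26, rab-10 at 0.05 and hgrs-1 at 0.08. The kinase genes nekl-3 and nekl-2 were rare, with SEs of 0.28 and 0.23, so their changes were poorly measured. For nekl-3 every mutant lay below every control.

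Astacin metalloproteases include the enzymes that open the old cuticle. Of 19 tested, 6 were lower and 1 was higher. nas-36, an ecdysis protease, fell by 0.54 (adjusted p = 0.0154; 0.0698 without control B), while its relative nas-37 stood at -0.45 and was not called (adjusted p = 0.0922). nas-15 fell by 1.32 and nas-30 by 0.73, the nas-30 call being lost without control A (0.0921), control B (0.092) or mutant C (0.0972). nas-20 rose by 0.74 (adjusted p = 0.00678). Without control A 2 astacin genes were called lower.

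Among 14 tested transcription factors and clock genes of the moulting cycle 8 were lower and 0 higher (median -0.52). grh-1, the Grainyhead factor of epidermal barriers, had 7.22, 7.83 and 4.79 CPM in mutants A to C, against 16.3, 14.7 and 12.3 CPM in controls A to C. It fell by 1.15 (SE 0.19, edgeR adjusted p = 0.000627), and bed-3, a zinc finger factor, fell by 0.99 (adjusted p = 0.00135). The nuclear receptors nhr-85 (-1.36) and nhr-41 (-0.71), the Blimp-1 relative blmp-1 (-0.62) and peb-1 (-0.93) were lower. The nhr-85 call was lost without control A (adjusted p = 0.0696), and that of peb-1 in 5 of the 6 leave-one-out fits, with an adjusted p of up to 0.31 without control A. nhr-23, the receptor needed for every moult, had 37.8, 42.5 and 42.9 CPM in mutants A to C, against 46.6, 41.1 and 39.7 CPM in controls A to C. Its groups overlapped, and nhr-23 stood at -0.04 (SE 0.10, adjusted p = 0.846). nhr-25 at -0.10 and the epidermal GATA factor elt-3 at 0.15 were not called. nhr-25 was rare, with 7 to 21 counts per library and an SE of 0.40, so its change was poorly measured. Genes not picked by the rule for named genes, such as nhr-23 and elt-3, were chosen for the text after their values were seen.

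**Figure D4:**
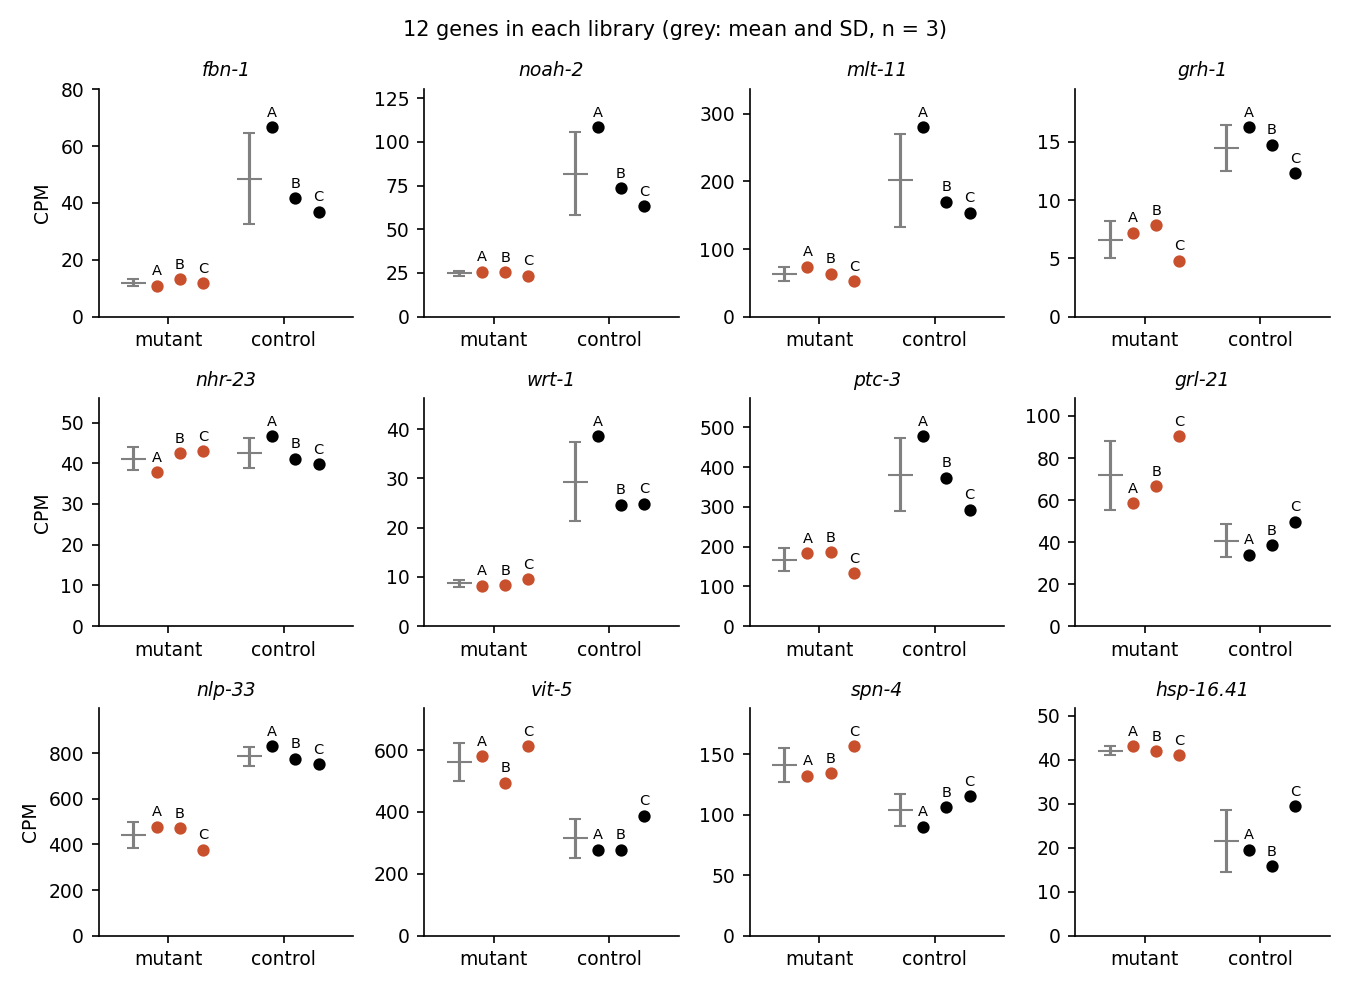
CPM of 12 genes in each library, mutants in red at the left and controls in black at the right, lettered by library, with the group mean and SD in grey (n = 3). fbn-1, noah-2, mlt-11, grh-1, wrt-1, ptc-3 and nlp-33 are lower in all 3 mutants than in any control, nhr-23 overlaps between groups, and grl-21, vit-5, spn-4 and hsp-16.41 are higher in all 3 mutants.

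Epidermal markers were read beside these results. Of 22 tested, 10 were lower and 0 higher, and their summed level was 1414 to 1539 CPM in mutants, against 1780 to 2233 CPM in controls. Most of the lower ones were themselves collagens or hedgehog-related genes (dpy-7, dpy-10, rol-6, sqt-3, wrt-2 and wrt-10). The largest fall was that of the nuclear receptor gene nhr-74 (-1.96), a call lost without control A (adjusted p = 0.0607). The junction gene ajm-1 (-0.19), the spectraplakin gene vab-10 (-0.18) and the factors lin-26 (0.16) and elt-1 (-0.18) were not called. che-14, an epidermal Dispatched-like protein, fell by 0.76, and mup-4, which links epidermis and cuticle, fell by 0.31. Without mutant C 4 of the 22 markers were called. The edgeR calls lost without it included dpy-7 (adjusted p = 0.197), dpy-10 (0.227), rol-6 (0.1885), sqt-3 (0.0629) and wrt-2 (0.0602).

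Of the signalling genes, the lower ones came mainly from the hedgehog-related and patched-related families. C. elegans lacks a canonical Hedgehog pathway, but it has many secreted proteins related to Hedgehog (wrt, grd, grl, hog and qua) and many Patched-like membrane proteins (ptc and ptr), a number of which act in the epidermis and at the moult. Of 28 tested hedgehog-related genes 20 were lower and 2 higher (median -1.03), and of 23 patched-related genes 12 were lower and 0 higher (median -0.59). The hedgehog-related genes summed to 1228, 1230 and 947 CPM in mutants A to C, against 2457, 2115 and 1942 CPM in controls A to C. In the leave-one-out fits, 15 to 19 hedgehog-related genes and 9 to 14 patched-related genes were lower.

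wrt-1 (WBGene00006947, chromosome II, 7530996 to 7533246) had 8.23, 8.34 and 9.47 CPM in mutants A to C, against 38.5, 24.7 and 24.9 CPM in controls A to C. It fell by 1.74 (SE 0.18, edgeR adjusted p = 3.06e-05) and kept its call whichever library was left out. grl-7 fell by 1.55, a call lost without mutant C (adjusted p = 0.136), and qua-1, a hedgehog-related protein needed for moulting, fell by 1.5. All 3 subfamilies with several tested genes held lower members, down to -1.81 for wrt-2, -1.55 for grl-7 and -1.27 for grd-11. The pattern was not uniform. grl-21 had 58.6, 66.5 and 90.3 CPM in mutants A to C, against 34, 38.5 and 49.6 CPM in controls A to C, and rose by 0.82 (adjusted p = 0.0342), a call lost without control A (0.0901) and control B (0.124). grd-3 rose by 0.48 (adjusted p = 0.0191), a call lost without control A (0.0992), control B (0.103) or mutant B (0.112).

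Of the receptors, ptr-4, which acts in moulting and the apical matrix, had 22.1, 26.0 and 23.4 CPM in mutants A to C, against 73.7, 55.1 and 45.8 CPM in controls A to C, and fell by 1.28 (SE 0.16, edgeR adjusted p = 0.000337). ptc-3 was more abundant, with 183, 185 and 133 CPM in mutants A to C, against 477, 374 and 293 CPM in controls A to C. It fell by 1.19 (adjusted p = 0.0179), a call lost without mutant C (0.136) and without mutant A (0.052). ptc-1, known for its role in the germline, stood at 0.20 with 501 ± 23.8 CPM in mutants and 437 ± 36.5 CPM in controls (SD, n = 3 each) and was not called.

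Other pathways held few calls. Outside the hedgehog-related and patched-related genes 13 of 308 signalling genes were lower and 3 higher, near the background of 5.88% and 2.29%. The Wnt list had 1 lower gene of 27, lit-1, a Nemo-like kinase, with 66.0, 61.6 and 63.6 CPM in mutants A to C, against 101, 97.0 and 85.8 CPM in controls A to C (-0.57, adjusted p = 0.000391). The TGF-beta list had 1 of 20, lon-1, a secreted protein that limits body length (-0.60, adjusted p = 0.00615). The Notch list had 1 of 17, osm-7, a secreted co-ligand (-0.61), a call lost without control A (adjusted p = 0.0581). Of 26 EGF and Ras genes lip-1, a MAP kinase phosphatase, was the only call (0.46), and it was lost without control A (0.179), control B (0.0578), mutant B (0.0778) or mutant C (0.151). Of 13 insulin pathway genes 0 were called by edgeR or DESeq2, with 1 at an unadjusted p under 0.05. ins-29 was the only higher one of 11 insulin-like peptide genes (0.57, adjusted p = 0.0055).

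Of 64 tested genes in the neuropeptide list 5 were lower (7.81%) and 0 higher, against 5.88% and 2.29% of all tested genes. The share of lower genes lay near that background. Most of the lower ones were secreted peptides of the epidermis. nlp-30, nlp-31, nlp-34 and nlp-33 are antimicrobial peptide genes expressed in the epidermis, the first 3 of them close together on chromosome V and nlp-33 apart on the same chromosome, and flp-3 (-1.01) was the fifth. nlp-33 (WBGene00003771) had 477, 471 and 376 CPM in mutants A to C, against 831, 775 and 751 CPM in controls A to C, and fell by 0.83 (SE 0.10, edgeR adjusted p = 4.44e-05). nlp-30 had 9.38, 13.1 and 12.4 CPM in mutants A to C, against 24.5, 25.8 and 25.5 CPM in controls A to C, and fell by 1.12. nlp-29, which lies beside nlp-30 and which infection is known to induce, stood at 0.20 and was not called. The caenacins cnc-2 (-1.23), cnc-3 (-1.43) and cnc-4 (-1.08), also epidermal antimicrobial peptides, were lower. With fip-5 (-0.81) and fip-6 (-1.05) they were the 5 lower genes of the 21 peptide genes in that list, the fip-6 call being lost in 5 of the 6 leave-one-out fits (adjusted p up to 0.0986, without mutant C). Its 4 higher genes were all fipr genes, among them fipr-13 (0.81) and fipr-10 (0.64). The number higher was 1 without control A or mutant B, 2 without control B or mutant C, and 6 without control C or mutant A. The fipr-13 call was lost without control A (adjusted p = 0.103) and mutant C (0.152), and that of fipr-10 without control A (0.0743), control B (0.0593) or mutant B (0.0531). The fipr genes are close copies of each other, so reads may be split among them.

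In the intestine group yolk genes were higher, while few of the tissue's markers were called. Vitellogenins are made in the intestine, secreted and taken up by oocytes through the receptor RME-2. Of 6 vit genes 4 were higher and 0 lower (median 0.60). vit-5 (WBGene00006929, chromosome X, 3403471 to 3408603) had 580, 494 and 613 CPM in mutants A to C, against 278, 278 and 388 CPM in controls A to C. Every mutant lay above every control, with control C the highest control. It was 1.79-fold higher, 0.84 on the log2 scale (SE 0.13, edgeR adjusted p = 0.00105), and its adjusted p was 0.11 without mutant C. vit-6 (0.67) had 2999, 2699 and 3010 CPM in mutants A to C, against 1647, 1750 and 2072 CPM in controls A to C, and kept its call in all 6 leave-one-out fits, as did vit-2 (0.60).

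vit-1 (0.60) lost its call without mutant C (adjusted p = 0.286), control A (0.0767), control B (0.0535) or mutant A (0.078). vit-3 (0.25) and vit-4 (0.35) were not called, and their groups overlapped. Without mutant C 2 of the 6 genes were called. The vit-3, vit-4 and vit-5 sequences are alike, so their counts may share reads. The list summed to 7007, 6179 and 6765 CPM in mutants A to C, against 3925, 3995 and 4935 CPM in controls A to C.

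Of 35 tested intestinal markers 1 was lower and 0 higher, and their median was 0.005. Of these markers 9 were higher in every mutant than in any control, against 12.3% of all genes tested. Another 6 were lower in every mutant, against 14.8% of all genes, so the median covers shifts in both directions. Their summed level was 9503 to 10540 CPM in mutants, against 9452 to 9550 CPM in controls. ges-1, the gut esterase, stood at -0.20 and was lower in every mutant than in any control. elt-2, the main intestinal GATA factor, stood at -0.16, and neither gene was called. cpr-6, a cathepsin B-like protease, was the exception, with 178, 156 and 147 CPM in mutants A to C, against 252, 232 and 219 CPM in controls A to C (-0.55, SE 0.09, edgeR adjusted p = 0.000544). Of 16 fatty acid desaturase and elongase genes 0 were called by edgeR or DESeq2, with 4 at an unadjusted p under 0.05.

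Detoxification and defence families held calls in both directions. Of 79 cytochrome P450 and UDP-glucuronosyltransferase genes 5 were lower (6.33%) and 7 higher (8.86%), against 5.88% and 2.29% of all tested genes. The share of lower genes lay near that background. ugt-26 (0.55) and ugt-44 (0.60) kept their calls whichever library was left out, but the count of higher genes was 2 without control A or mutant B, 3 without control B and 4 without mutant C. It was also 2 by DESeq2 (4 lower) and with 12 libraries in 1 fit (5 lower), and without control A 2 genes were lower. The 76 C-type lectin genes had 7 lower (9.21%), down to -1.71 for clec-92, and 4 higher (5.26%), among them clec-265 (0.50). Without control A, control B or mutant C 4 were lower. Higher were 0 by edgeR without control A, and 2 without control B, mutant A or mutant C. The clec-265 call was lost without control A (edgeR adjusted p = 0.0907), control B (0.101) or mutant B (0.0831). Lysozyme and saposin genes had 2 lower and 2 higher of 24 (8.33% each), with spp-13 at -1.03 and lys-2 at 0.28. The lys-2 call was lost in 4 of the 6 leave-one-out fits (adjusted p up to 0.242, without control B). hrg-3, which encodes a haem-carrying peptide secreted by the intestine, had 25.4, 40.5 and 46.0 CPM in mutants A to C, against 17.3, 22 and 20.8 CPM in controls A to C. It rose by 0.90 (adjusted p = 0.0257), but the call was lost without control A (0.107), control B (0.0602), control C (0.0675) or mutant B (0.0506). pgp-6, an ABC transporter on chromosome X, had 53.3, 62.4 and 56.2 CPM in mutants A to C, against 27.3, 31.8 and 37.1 CPM in controls A to C, and rose by 0.83 (adjusted p = 0.000112). Its neighbour in name pgp-5 rose by 0.89, a call lost without mutant C (0.263), control A (0.0721), control B (0.0935) or mutant B (0.0616).

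Few germline markers were called. Of 54 tested, 4 were called higher and 0 lower, the median was 0.13, and 20 of the 54 were higher in every mutant than in any control, against 12.3% of all genes tested. Their summed level was 9580, 9011 and 9003 CPM in mutants A to C, against 7839, 8334 and 8469 CPM in controls A to C. The called genes encode RNA-binding proteins or regulators of oocytes and early embryos: spn-4 (0.44), puf-5 (0.30), gld-3 (0.28) and mex-6 (0.27). spn-4 (WBGene00004984) had 132, 134 and 157 CPM in mutants A to C, against 90.0, 106 and 116 CPM in controls A to C (SE 0.10, edgeR adjusted p = 0.00742), and its call was lost without control A (0.0637). The other calls were each lost in 5 of the 6 such fits, with adjusted p-values of up to 0.273 for puf-5 without control A, 0.194 for gld-3 without mutant B and 0.283 for mex-6 without control A. Without control A 0 of the 54 were called by edgeR (11 at an unadjusted p under 0.05), 7 without mutant C, and 1 or 2 in the other leave-one-out fits.

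The early germline markers gld-1 (0.14), pgl-1 (0.05) and glh-1 (-0.17), chosen after their values were seen, were not called. Nor were oma-1 (0.28) and oma-2 (0.23), needed for oocyte maturation, and the yolk receptor gene rme-2 (0.10). Yet gld-1, oma-1 and oma-2 were each higher in every mutant than in any control. The change of oma-1 (edgeR adjusted p = 0.0559) was about that of the called gld-3 (0.28), so the calls alone do not separate early from oocyte genes. Single genes outside the marker list were also higher. cey-2, a germline Y-box protein, had 995, 987 and 947 CPM in mutants A to C, against 708, 813 and 818 CPM in controls A to C (0.32), and the gap junction genes inx-14 (0.34) and inx-8 (0.44) of the gonad were higher. All 3 were chosen after their values were seen, and their calls were lost in 4 or 5 of the 6 leave-one-out fits. The adjusted p was up to 0.256 for cey-2, 0.21 for inx-14 and 0.21 for inx-8, each without control A. Of 77 sperm genes 0 were lower and 1 was higher, with a median of -0.03. The higher one was the rare nspb-4 (1.21), a call lost without control A (0.139), control B (0.1), mutant B (0.0943) or mutant C (0.154).

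Of 10 nspc peptide genes, close copies of each other whose reads may be split, nspc-3 and nspc-4 on chromosome X were nearly silent in the mutant. nspc-4 had 0 counts over the 3 mutants and 173 over the 3 controls. Set against a floor of 3 counts over the group, it was 57.1-fold lower, a value that depends on the floor. The exact binomial interval, which covers counting error only, had a lower limit of 45.9-fold. nspc-3 had 1 count over the mutants and 38 over the controls, a ratio of 37.6 (95% interval 6.36 to 1525, exact binomial, counting error only). The other 8 nspc genes were not called.

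**Figure D5:**
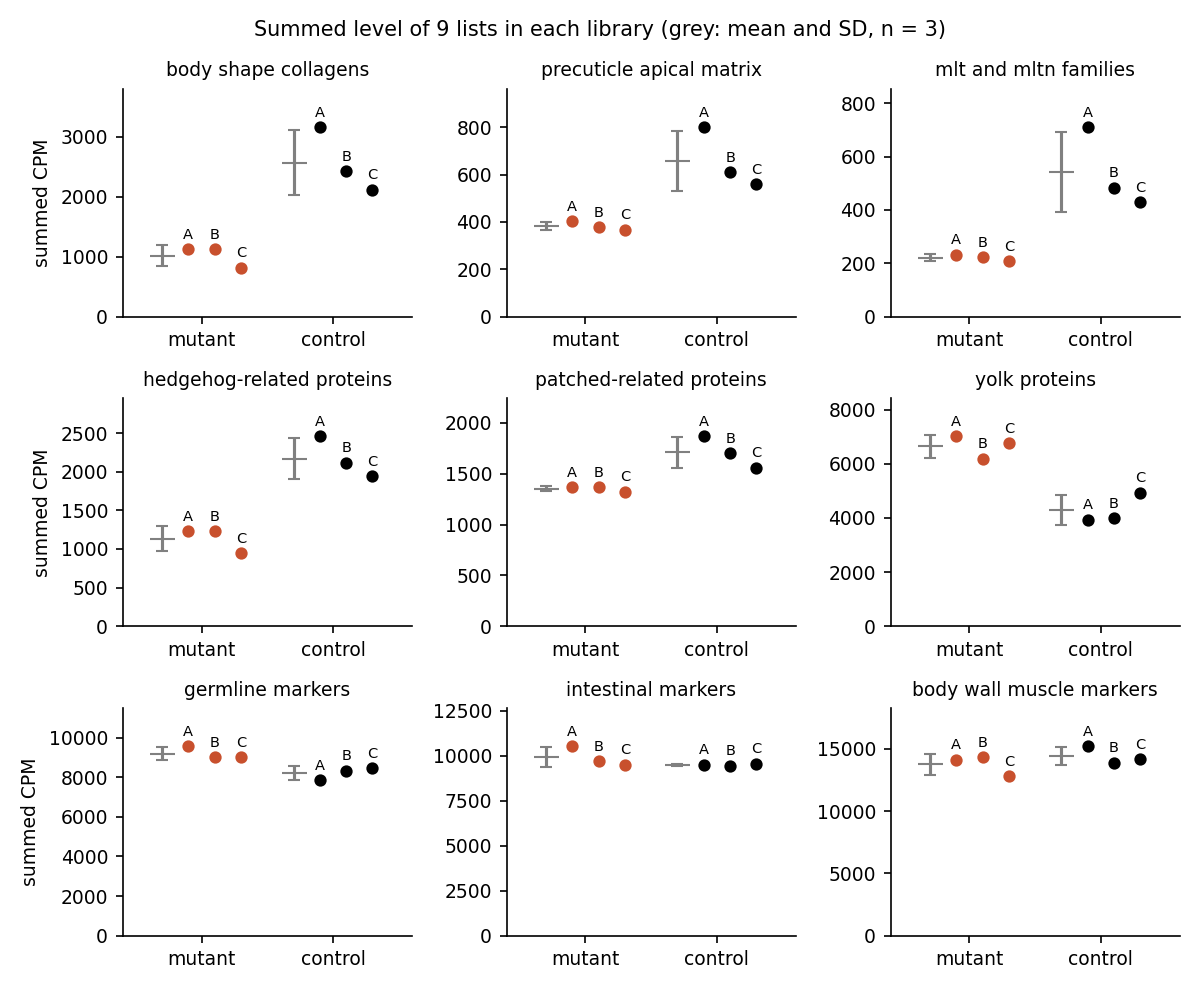
Summed CPM of the members of 9 lists in each library, mutants in red at the left and controls in black at the right, lettered by library, with the group mean and SD in grey (n = 3). For body shape collagens, precuticle genes, mlt and mltn genes, and hedgehog-related and patched-related genes every mutant lies below every control, for yolk proteins and germline markers every mutant lies above every control, and for intestinal and body wall muscle markers the groups overlap.

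Other tissues gave few calls outside the epidermis. Of 17 body wall muscle markers 0 were called by edgeR or DESeq2, with 2 at an unadjusted p under 0.05 and a median of -0.08, and their summed level was 12797 to 14327 CPM in mutants, against 13875 to 15233 CPM in controls. unc-54, the main myosin heavy chain, had 3483 ± 110 CPM in mutants and 3353 ± 260 CPM in controls (SD, n = 3 each). Of 23 neuron markers ida-1, a dense-core vesicle protein, was the only call (-0.45), lost without control A (adjusted p = 0.149), control B (0.0786) or mutant A (0.0787). Of 7 pharynx muscle markers 0 were called by edgeR or DESeq2, with 0 at an unadjusted p under 0.05. In contrast, 4 of 10 abu genes, which are expressed in the pharynx and its lining, were lower, among them abu-12 (-1.33) and abu-13 (-1.27). Ribosomal protein genes had 1 lower of 76, rpl-11.2 (-0.39), a call lost without control A. Of 65 mitochondrial ribosomal genes 0 were called by edgeR or DESeq2, with 3 at an unadjusted p under 0.05, and of 22 oxidative phosphorylation genes 0 were called by either, with 1 at an unadjusted p under 0.05.

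Of 14 heat shock genes 3 were higher. hsp-16.2 had 52.4, 61.2 and 54.9 CPM in mutants A to C, against 27.5, 25.0 and 40.1 CPM in controls A to C, a log2 fold change of 0.84 (adjusted p = 0.00373; 0.0661 without mutant C). hsp-16.41 rose by 0.93 (adjusted p = 0.00775; 0.0867 without mutant C), and hsp-43 rose by 0.51. The hsp-16 genes are alike in sequence, so some reads may be shared between them and their counts are uncertain one by one.

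Among the genes of no list, the rule named, among those at 5 CPM or more whose groups did not overlap, the 8 with the largest change in each direction. cdh-7 (WBGene00000399, chromosome II, 14843229 to 14850905), a cadherin gene, had 3.03, 3.40 and 3.44 CPM in mutants A to C, against 19.4, 11 and 9.80 CPM in controls A to C. It was 3.99-fold lower (log2 fold change -2.0, SE 0.27, edgeR adjusted p = 0.000355) and kept its call whichever library was left out. cdh-10 fell by 1.89, a call lost without mutant C (adjusted p = 0.0952). The cdh family was looked at after these values were seen. Of its 8 tested protein-coding genes 4 were lower and 0 higher, the other lower ones being cdh-12 (-1.62) and cdh-1 (-0.59). The cdh-12 call was lost without mutant C (0.178) and control B (0.0568), and that of cdh-1 without control A (0.073).

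The other lower genes of the rule were C01F1.5 (-1.91), H42K12.3 (-1.86), Y65B4BL.1 (-1.85), C09F9.2 (-1.82), F49E10.2 (-1.77) and dao-2 (-1.74). Y65B4BL.1 shares 73.8% of its exon bases with another gene, so its reads may belong to either. Without mutant C the calls of H42K12.3 (adjusted p = 0.121), Y65B4BL.1 (0.242), C09F9.2 (0.0554) and dao-2 (0.0902) were lost. That of Y65B4BL.1 was also lost without control B (0.102). Surface glycosylation genes, chosen after their values were seen, were lower as well. The bus genes set how bacteria stick to the cuticle, and of the 5 tested that were annotated as protein-coding 4 were lower. bus-8, left unmatched by the annotation, fell too (-1.24, edgeR adjusted p = 0.000315) and kept its call in all 6 leave-one-out fits. The bus-4 call was lost in 5 of the 6 leave-one-out fits (adjusted p up to 0.191, without control A), that of bus-12 without control A (0.0772) and that of bus-17 without mutant C (0.0624). glf-1, a UDP-galactopyranose mutase, was also lower (-1.44, edgeR adjusted p = 3.56e-05). It had 16.2, 15.0 and 11.8 CPM in mutants A to C, against 47.5, 34.5 and 33.5 CPM in controls A to C. Apart from the glycosylation genes, hhat-1, also chosen after its values were seen, fell by 1.41 (edgeR adjusted p = 0.000158).

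Higher genes of no list, at 5 CPM or more, were led by Y73B3A.t1. Y73B3A.t1, a tRNA pseudogene by its annotation, had 247 counts over the mutants and 3 over the controls, a ratio of 83.2 (95% interval 28.1 to 406, exact binomial, counting error only). The next were Y22D7AR.10 (1.48), C27B7.9 (1.25), W03D2.13 (1.17), C33A12.19 (1.07), decr-1.1 (1.00) and F10C1.9 (0.89), besides hrg-3. C33A12.19 had 19.8, 23 and 31.4 CPM in mutants A to C, against 9.70, 11.8 and 13.8 CPM in controls A to C. decr-1.1, a dienoyl-CoA reductase gene by its name, had 9.09, 8.51 and 10.0 CPM in mutants A to C, against 4.33, 2.79 and 6.22 CPM in controls A to C. The C27B7.9 call was lost without control A (adjusted p = 0.0949), control B (0.0852) or mutant C (0.105).

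The change was set beside that of the other let-7 mutant of the series, U13A (strain VT3878, lin-41(tn1541ma480) with let-7(ma432), against strain DG3913, lin-41(tn1541)). That strain also carries an altered lin-41, its libraries were tabled apart, and so strain, allele and table cannot be told apart. The difference between the 2 effects was tested over all 12 libraries, and 277 of 14155 genes differed (1.96%), the U18A effect being lower for 230 (1.62%) and higher for 47 (0.332%). Of the 94 genes named by the rule 28 differed, 26 with the lower U18A effect. They had been chosen for their change in the U18A mutant, so their share is not read against that background. The signs were opposite for fbn-1, noah-2 and cdh-7: fbn-1 changed by -2.01 in the U18A mutant and by 2.05 in the U13A mutant, noah-2 by -1.72 and 1.35, and cdh-7 by -2.0 and 2.72, each called in both contrasts. For grl-16, rol-1 and ptc-3 no difference was called, with U18A effects of -1.13, -1.35 and -1.19 and U13A effects of -1.08, -1.21 and -0.34. Of these only rol-1 was called in the U13A contrast (edgeR adjusted p = 0.0183), not grl-16 (0.0938) or ptc-3 (0.555). The yolk gene vit-5 changed by 0.84 in the U18A mutant and by 0.47 in the U13A mutant, a difference of 0.35 that was not called (adjusted p = 0.708).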

How the data were processed

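RNA-seq of whole L4 larvae was analysed in 6 of the 12 libraries of the series, 3 mutant and 3 control, with the remaining 6 used in 1 comparison only. Per the labels' protocols, total RNA was depleted of ribosomal RNA before library preparation (NEBNext Ultra II). The deposited values are the authors' raw read counts per gene, whole numbers with no normalization. The submitters' processing notes name cutadapt 1.9, Bowtie2 2.3.4.3, featureCounts and Subread 1.6.2, with no role for each. The genome build, the annotation, the use of strand and the treatment of reads mapping to several places are not given in the sources used here, so overlapping genes and near-identical copies may share counts. Names, biotypes, lengths and coordinates are from WBcel235 (Ensembl release 115), which matched 40528 of 46722 entries, and from the RefSeq table of that assembly for 5713 more, which leaves 481 unmatched.

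The main test was edgeR's quasi-likelihood F test (edgeR 4.0.16, R 4.3.3, TMM, robust estimation), after filterByExpr at its count limits of 10 per library and 15 in total, on the 6 libraries with no covariate, 2-sided. p-values were adjusted by Benjamini-Hochberg over 12689 genes at a threshold of 0.05. The common biological coefficient of variation was 9.03%. Each SE was the absolute log2 fold change over the square root of its F value. CPM use TMM-scaled library sizes. The fit was first tested on simulated counts. The difference between the U18A and U13A effects was a contrast in 1 fit to 12 libraries.

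The 42 function lists, the genes and the tests were chosen with earlier results of these data known, and no list was tested as a set. Named by rule were, per list and direction, up to 2 called genes with the largest change, 5 CPM or more on average and groups that did not overlap; outside the lists the 8 such genes per direction, leaving out col symbols and heterochronic genes; the 5 most abundant called genes per direction; let-7; and genes of counts of 3 or fewer. Others were chosen after their values were seen. 10 listed genes were not found in the table by name. The alternatives were RLE size factors, other count filters, DESeq2 1.42.0, a replicate block, 12 libraries in 1 fit, protein-coding genes only (added after seeing the data), stricter thresholds, and leaving out each library.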

Additional observations from a re-analysis of the deposited data

Results flagged for a closer look

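Of the 94 genes named by the rule, 28 changed differently in the U18A and U13A mutants, by the edgeR contrast of the 2 effects over 12 libraries with Benjamini-Hochberg adjustment over 14155 genes. The difference is the U18A effect minus the U13A effect on the log2 scale. Strain, lin-41 allele and table cannot be told apart in it.

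Among cuticle genes the difference was -4.65 for the collagen gene col-176, -3.33 for dpy-9, -2.61 for dpy-3, -2.56 for dpy-7, -2.42 for dpy-10 and -1.06 for cut-2. In the collagen processing genes it was -2.44 for fkb-5 and -1.49 for fkb-3. dpy-10 shares 49.0% of its exon bases with another gene. Precuticle and moult genes gave -4.09 for fbn-1, -3.18 for lpr-6, -3.09 for noah-2, -1.95 for mlt-11 and -1.67 for mlt-9.

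Of the signalling genes, wrt-1 differed by -1.99, ptr-4 by -1.91 and lon-1 by -0.98. The peptide genes cnc-3 and nlp-30 differed by -2.45 and -1.33. In the intestine group, spp-17 differed by -1.48 and cpr-6 by -0.75.

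Outside the lists the difference was -4.75 for cdh-7, -3.49 for C09F9.2, -3.46 for cdh-10, -3.05 for Y65B4BL.1, -2.66 for H42K12.3 and -2.34 for dao-2. It was positive for W03D2.13 (1.68) and hrg-3 (1.31).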

How the results depend on the processing

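No result listed below reversed its direction. Of the 1036 called genes, RLE size factors kept 1030, no count filter 1006, DESeq2 701 and 12 libraries in 1 fit 672, and none was called in the opposite direction. Without a count filter 481 genes were higher, 17 germline genes were called and 18 genes over 1000 CPM. DESeq2 gave 160 higher genes, 22 called intestine genes, 4 germline genes and 225 genes at 1 to 10 CPM. With 12 libraries in 1 fit 105 genes were higher, 3 germline genes were called, and the classes of 10 to 100, 100 to 1000 and over 1000 CPM held 326, 73 and 4 called genes. At an adjusted p under 0.01 507 genes were called, 75 higher and 432 lower, with 32 signalling, 13 intestine and 3 germline genes, and 174, 258, 69 and 5 genes from 1 to 10 CPM upwards. With a log2 fold change of at least 1, 366 were called, 19 higher and 347 lower, with 71 cuticle, 20 moult, 24 signalling, 10 intestine and 4 germline genes, and 225, 108, 29 and 3 genes over the same classes. The causes were not tested, beyond the stricter limits themselves.

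Whether the replicate letters pair the libraries is not stated in the labels. Deviations of same-letter libraries correlated at 0.056 for A, -0.005 for B and 0.124 for C. Mutant A correlated best with control A, mutant C with control C, and mutant B with control A. These values do not settle the question. With the letter as a replicate block 1429 genes were called, 496 higher and 933 lower, with 221 at 100 to 1000 CPM.

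Leaving out each library in turn, the fits called 548 to 1109 genes, 86 to 386 higher and 462 to 793 lower, with the fewest without control A. Ranges were 85 to 110 cuticle, 22 to 35 moult, 35 to 51 signalling, 13 to 32 intestine and 2 to 10 germline genes. By class they were 180 to 372, 285 to 602, 70 to 174 and 5 to 15 from 1 to 10 CPM upwards. The U18A and U13A effects differed for 176 to 342 genes and for 19 to 30 of the named genes. Of 158 called genes, named by the rule or chosen after their values were seen, 55 lost the call without control A and 61 without mutant C. In none of the 6 fits did 69 of them lose it. The 158 include genes not described above and leave out some that are, such as lpr-7 and fkb-4. Fits with 5 libraries have fewer samples. Depth limits rare genes most: the median SE was 0.249 at 1 to 10 CPM.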

Other observations

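Of 43 tested pqn genes 7 were lower and 0 higher, with a median log2 fold change of -0.04. The lips family of lipase-related genes had 4 lower of 8, led among those looked at by lips-3, with 8.52, 10.5 and 8.95 CPM in mutants A to C, against 19.6, 19.7 and 18.0 CPM in controls A to C (-1.04, edgeR adjusted p = 0.000112). The mam genes, named for the MAM domain of extracellular proteins, had 3 lower of 4, mam-1 (-1.48), mam-2 (-1.08) and mam-3 (-0.96), the mam-3 call being lost in 4 of the 6 leave-one-out fits (adjusted p up to 0.222, without control A). These families were looked at after values were seen, and their counts cover genes annotated as protein-coding.

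Among 22 small nuclear RNA entries 4 were higher and 0 lower, with a median of 0.30, against 2.29% higher among all tested genes. Of 297 pseudogenes 10 were lower and 0 higher, a smaller share lower than the 5.88% of all tested genes. ZC374.2 had 4 counts over the mutants and 158 over the controls, a ratio of 39.1 (95% interval 15.0 to 145, exact binomial, counting error only).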
